A study of Mus musculus with 8 samples.

Results

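S100a8, S100a9, S100a4, S100a6, S100a10 and S100a11 are small proteins of the S100 family, most members of which bind calcium. Their transcripts were followed in immune cells of diabetic and control mouse skin wounds over 4 days. The 6 genes were picked by name, as members of the family, and they are 6 of 21755 genes with a row in the count tables and 6 of 14 genes whose symbol begins with S100a. Each of the 6 had a row in all 8 tables. On chromosome 3 of GRCm38 the genes lie in groups, with other genes of the family among them. S100a5 lies between S100a4 and S100a6, and S100a7a between S100a6 and S100a8. S100a4 (ENSMUSG00000001020.8, chr3:90603771-90606045, plus strand), S100a6 (ENSMUSG00000001025.8, chr3:90612882-90624181, plus strand), S100a8 (ENSMUSG00000056054.9, chr3:90668978-90670035, plus strand) and S100a9 (ENSMUSG00000056071.12, chr3:90692632-90695721, minus strand) follow each other. S100a11 (ENSMUSG00000027907.4, chr3:93520488-93526287, plus strand) and S100a10 (ENSMUSG00000041959.14, chr3:93555080-93564643, plus strand) lie 2825 kb further on.

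The study compared CD45+ cells, that is cells carrying the leukocyte surface protein encoded by Ptprc, from skin wounds of mice labelled C57BL/6, which the methods give as male C57BL/6J. The diabetic arm received streptozotocin, a toxin of pancreatic beta cells, at 120 mg/kg when the mice were 4 weeks old, and mice past a blood glucose threshold were wounded. The control arm was wounded without streptozotocin diabetes. Each arm was sampled at days 1, 3, 5 and 7 after wounding, with 1 library for each arm and day and the cells of 5 mice pooled in each library, so mice within a library cannot be separated and no single day can be tested. No source says which cells came from which mouse, so p-values measure the spread between these libraries only. A label field gives a surface name that runs from CD45+ to CD52+ over the samples, while all titles say CD45+.

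Most S100 proteins pair into dimers, bind calcium and then take hold of target proteins. S100a8 and S100a9 form calprotectin, which fills the cytosol of neutrophils, is released at sites of tissue damage and there acts as an alarmin, a signal of injury read through the receptors encoded by Tlr4 and Ager. S100a10 binds the annexin encoded by Anxa2 and S100a11 the annexin encoded by Anxa1, both at membranes. S100a4 binds the heavy chain of non-muscle myosin encoded by Myh9 and is linked to cell movement, and S100a6 binds the protein encoded by Cacybp.

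Because S100a8 and S100a9 moved together in these libraries and S100a4 took another course, the promoters of the 3 genes are set side by side. Each run covers 250 bases before and 50 bases after the RefSeq start of the gene in GRCm38.p6, written along the strand of the gene. The capitals mark matches to TTNNGNAA, the core recognised by C/EBP proteins, which drive genes of granulocytes. Both strands were searched.
S100a8: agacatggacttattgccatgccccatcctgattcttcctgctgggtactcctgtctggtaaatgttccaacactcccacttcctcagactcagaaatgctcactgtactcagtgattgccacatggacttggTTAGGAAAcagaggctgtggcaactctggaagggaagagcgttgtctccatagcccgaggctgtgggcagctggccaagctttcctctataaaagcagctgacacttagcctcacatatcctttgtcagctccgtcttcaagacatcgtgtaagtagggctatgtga
S100a9: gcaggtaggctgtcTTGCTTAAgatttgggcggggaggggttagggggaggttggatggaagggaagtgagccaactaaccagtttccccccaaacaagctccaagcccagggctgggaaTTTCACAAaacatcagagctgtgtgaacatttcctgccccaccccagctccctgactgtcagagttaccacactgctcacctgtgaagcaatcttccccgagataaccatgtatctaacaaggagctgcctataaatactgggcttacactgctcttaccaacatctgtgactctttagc
S100a4: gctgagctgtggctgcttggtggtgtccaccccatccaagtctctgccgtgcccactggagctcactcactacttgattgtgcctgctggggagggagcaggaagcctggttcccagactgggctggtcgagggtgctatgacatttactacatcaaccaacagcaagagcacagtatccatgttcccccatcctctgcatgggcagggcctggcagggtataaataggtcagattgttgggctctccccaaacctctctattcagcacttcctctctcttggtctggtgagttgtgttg
The windows are chr3:90668821-90669120 for S100a8, chr3:90695672-90695971 on the minus strand for S100a9 and chr3:90603520-90603819 for S100a4. S100a8 held 1 match and S100a9 held 2, while S100a4, S100a6 and S100a11 held 0. For S100a10 no promoter window was at hand, so 5 of the 6 genes were searched. The letters occurred in 40.7% of 32851 promoter windows of the same length, so a match is common. GAGGAA, the core of PU.1 sites, occurred 2 times in the S100a8 window, 1 time each in those of S100a4 and S100a11, and in 28.3% of all windows. A match is a description of letters and not of binding, which was not measured.

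After filtering, 35215 cells remained, between 3273 and 5440 in a library, or 71.5% (control day 5) to 99.0% (control day 7) of a table's barcodes. A table held 19236522 to 33842509 unique molecular identifiers (UMIs, each a captured RNA molecule), and the median UMIs of a cell ran from 2573 to 8219. Ptprc had a UMI in 70.5% to 86.1% of cells. Cells were clustered without S100 genes and named from markers that hold no S100 gene. This gave 13824 neutrophil-like, 3561 monocyte-like, 7369 macrophage-like and 386 osteoclast-like cells, 2871 dendritic-like, 2446 T cell-like and 547 NK cell-like cells, and 148 cells like mast cells and 52 like fibroblasts. Another 4011 cells led by Gm26917 and Malat1 stayed unnamed. Names rebuilt in this way may differ from those of the study, and different clusters held most of the neutrophil-like cells in different libraries. A level is given in CPM (counts per-million), the UMIs of the gene scaled to the summed UMIs of the cells without mitochondrial genes, and its intervals cover counting error only.

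S100a8 and S100a9 were by far the strongest in neutrophil-like cells, and their level over a whole library was lower at day 7 than at day 1 in both arms. Over all cells the S100a8 level in the diabetic libraries was 9511 CPM at day 1, 3887 at day 3, 3056 at day 5 and 1212 at day 7. In the control libraries it was at 8274, 3358, 255 and 1259 on the same days. The control day 5 library stood far below the other 7 for S100a8, and the same library had neutrophil-like cells as 8.0% of its cells, against 45.8% at day 5 in the diabetic arm. S100a9 followed S100a8, at 9392, 3809, 3245 and 1207 CPM in the diabetic arm and 8659.6, 3424, 262 and 1305 in the control arm. The share of neutrophil-like cells ran from 59.9% (control day 1) to 8.0% (control day 5), and over all cells a smaller share of that class and less RNA of the gene per cell enter the level together. In each arm the share and the S100a8 level ran in the same order over the days, but the steps differed in size, since the share was 51.3% at day 1 and 49.2% at day 3 in the diabetic arm while the level went from 9511 to 3887 CPM.

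Within neutrophil-like cells the S100a8 level in the diabetic arm was 23699 CPM at day 1, 11386 at day 3, 9518 at day 5 and 5966 at day 7. In the control arm it was 18786, 12451, 5339.9 and 4868. The order of the days was the same in both arms, with day 1 highest and day 7 lowest. S100a9 was 23491, 11705, 10259 and 6403 CPM in diabetic neutrophil-like cells and 19964, 12828, 6096 and 5507 in control ones. Neutrophil-like cells held 63.3% (control day 7) to 91.7% (diabetic day 1) of all S100a8 UMIs of a library, and 69.1% to 92.1% of the S100a9 UMIs. With cells thinned to 1000 UMIs, which left out 740 of 13824 shallower neutrophil-like cells (1 to 181 in a library), an S100a8 UMI was found in 82.1% to 99.3% of the others in a library and an S100a9 UMI in 84.1% to 99.4%. Without thinning the ranges were 89.3% to 99.4% and 90.1% to 99.7%.

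**Figure D1:**
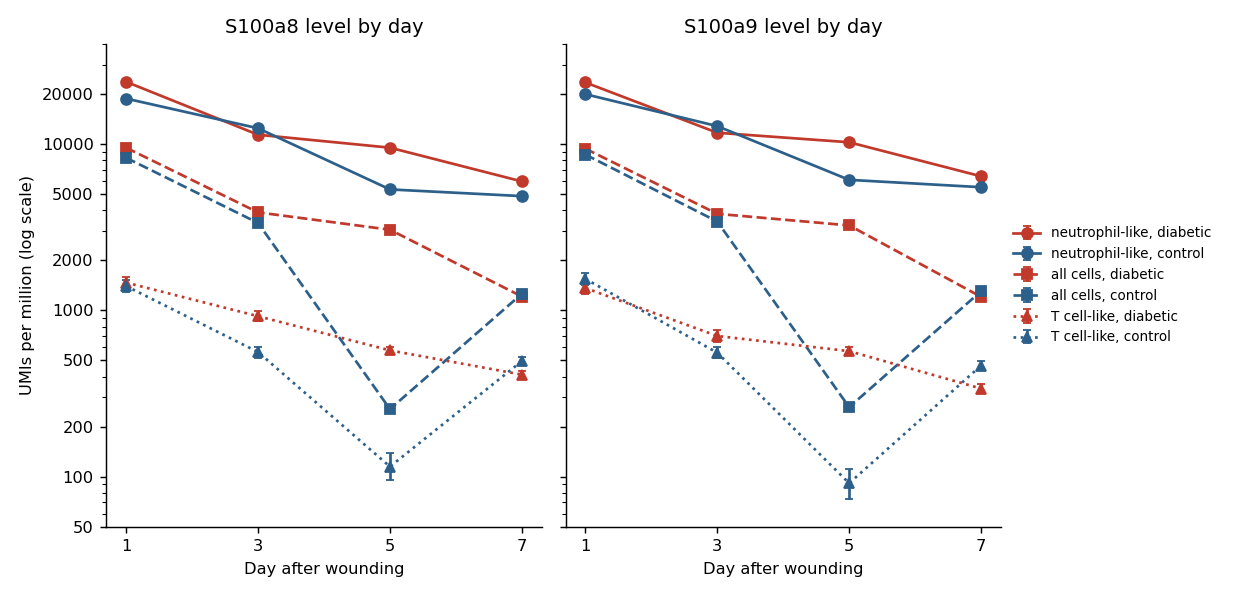
S100a8 and S100a9 levels (CPM, log scale) against the day after wounding in neutrophil-like cells, all cells and T cell-like cells, 1 point per library, bars giving the 95% counting interval. Red is diabetic and blue control, and neutrophil-like cells lie above T cell-like cells in all 8 libraries, and the control day 5 library is lowest for all cells and for T cell-like cells.

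T cells are not known to make calprotectin, so S100a8 and S100a9 in T cell-like cells gauge the RNA that other cells shed into the droplet or well. S100a8 in T cell-like cells of the diabetic arm was at 1470.4 CPM at day 1, 923 at day 3, 575 at day 5 and 411 at day 7. In the control arm it was at 1401, 562, 115 and 496. This gauge followed the level over all cells, with control day 5 lowest. In that library 1 cell held 54 of the 115 S100a8 UMIs of the class. At day 1 a single cell held 111 of 536 in the control and 100 of 732 in the diabetic library. The comparisons with T cell-like cells were not repeated without these day 1 cells. The neutrophil-like level was 9.80 times (control day 7) to 46.3 times (control day 5) the T cell-like level for S100a8 and 11.8 to 66.7 times for S100a9. Without the 1 cell of control day 5, a choice made after seeing the data, the ratios of that library were 86.0 and 127. After thinning to 1000 UMIs, which left out 143 of 2446 T cell-like cells (2 to 59 in a library), 6.76% to 69.2% of the others still had an S100a8 UMI (26.7% to 93.1% unthinned), at a median depth of 3914 UMIs against 2475 for neutrophil-like cells. A UMI of S100a8 in a cell was therefore common in a class taken to lack the gene.

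Outside the neutrophil-like cells, S100a8 and S100a9 stayed close to this gauge in CPM. Of 46 pairs of another class and a library, the S100a8 level was above the T cell-like level of the same library in 10, below it in 17 and not separate from it in 19 by the 95% counting interval of the ratio, whose median was 0.962. For S100a9 the counts were 8 above, 18 below and 20 not separate, with a median ratio of 0.901. Without the 1 T cell-like cell of control day 5 the counts were 11 above, 14 below and 21 not separate for S100a8, and 9, 14 and 23 for S100a9. On this scale a value at or below the gauge gives no sign of transcription beyond it. The scale matters, since the median depth was 8011 UMIs in monocyte-like and 8286 in macrophage-like cells, 22592 in osteoclast-like and 862 in unnamed cells, against 3914 in T cell-like cells. Counted as UMIs per cell, S100a8 in monocyte-like cells was above the T cell-like value in 7 of 7 libraries, at a median of 1.90 times, in macrophage-like cells in 7 of 8, at 1.56 times, and in osteoclast-like cells in 4 of 4, at 3.84 times. The unnamed cells were below it in 8 of 8, at 0.405 times. Free RNA and transcription in these cells were not separated by a test. Of the 10 S100a8 pairs above the gauge with all cells kept, 4 belonged to the unnamed cells, at 1.18 to 1.61 times in CPM. Another was the 24 mast cell-like cells of control day 3, at 2.38 times. The macrophage-like cells at day 7 reached 1.08 times in the diabetic and 1.15 times in the control library, and the dendritic-like cells of control day 7 1.10 times. The last 2 were monocyte-like cells. At diabetic day 7 they were at 1.16 times. In the 31 cells of control day 5 the ratio was 1.64, or 3.04 without the 1 T cell-like cell. However, 1 of these 31 cells held 51 of their 78 S100a8 UMIs, and the others were at 67.9 CPM. The T cell-like level of that library was 115 CPM, or 62.1 without its 1 cell, so this pair rests on single cells. Monocyte-like cells, a class known from other work to be able to carry calprotectin, had a median ratio to T cell-like cells of 0.958 for S100a8 and 0.829 for S100a9 over 7 libraries.

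Other neutrophil genes were taken as a comparison. As a percent of the neutrophil-like level of the same library, S100a8 in T cell-like cells was 2.16% to 10.2% and S100a9 1.5% to 8.47%. The median over 8 neutrophil genes (Csf3r, Cxcr2, G0s2, Hdc, Il1r2, Lrg1, Mmp8 and Retnlg) ran from 1.82% to 7.31% in those cells, though single genes among them spread from 0% (control day 5) to 25.6% (diabetic day 7). All but Mmp8 among the 8 were also markers used to name the neutrophil-like cells. The summed neutrophil-like markers of T cell-like cells were at 691 to 1717 CPM, with 1 of 10 at 0 in control day 5 and 0 of 10 in the others. S100a8 lay above the median of the 8 genes in 8 of 8 libraries and S100a9 in 6 of 8. The 2.16% of S100a8 at control day 5 includes the 1 T cell-like cell high in it, without which the level was 62.1 in place of 115 CPM. The comparison with the 8 genes was not repeated without that cell.

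**Figure D2:**
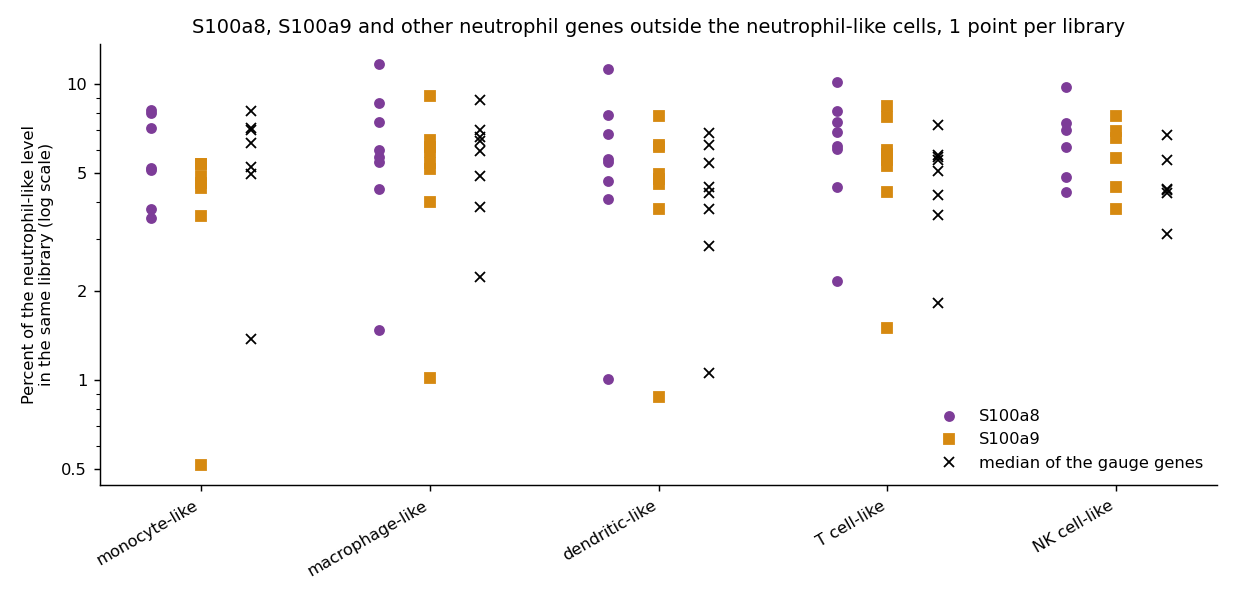
S100a8, S100a9 and the median of 8 other neutrophil genes as a percent of their neutrophil-like level in the same library (log scale), by cell class, 1 point per library. In macrophage-like cells S100a8 runs from 1.48% to 11.7%, S100a9 from 1.02% to 9.09% and the other genes from 2.23% to 8.83%, the lowest of each kind being control day 5.

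The balance of S100a8 to S100a9 UMIs was nearly constant in neutrophil-like cells, at 0.876 (control day 5) to 1.01 (diabetic day 1). It was often higher elsewhere. In T cell-like cells it ran from 0.905 (control day 1) to 1.31 (diabetic day 3), and in macrophage-like cells from 0.918 to 1.29. At control day 1 the monocyte-like balance was 1.25 (95% counting interval 1.21 to 1.28), against 0.941 for neutrophil-like and 0.905 for T cell-like cells. At control day 3 the monocyte-like and T cell-like balances were close, at 1.02 and 1.01. In the diabetic arm they were 1.08 and 1.08 at day 1, 1.48 and 1.31 at day 3, 1.07 and 1.01 at day 5, and 1.61 and 1.21 at day 7. Monocyte-like cells had 1.02 to 1.61 in 6 of their 7 libraries and 6.00 in control day 5, which held only 31 such cells with 78 S100a8 and 13 S100a9 UMIs. A lone cell of that library held 51 of the 78 S100a8 UMIs and 0 S100a9 UMIs. Without it the counts were 27 and 13, and the S100a8 level was 67.9 in place of 189 CPM.

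The fall of S100a8 and S100a9 in neutrophil-like cells from day 1 to day 7 was tested with both arms in 1 model. The change per day, as log2, was -0.49 for S100a8 (SE 0.070, adjusted p = 5.28e-04, edgeR's quasi-likelihood test) and -0.47 for S100a9 (SE 0.070, adjusted p = 5.89e-04). S100a11 also fell, by 0.36 a day (adjusted p = 0.00160), and S100a6 by 0.30 (adjusted p = 0.00115). S100a10 rose by 0.17 a day (adjusted p = 0.0153), and S100a4, at +0.12, did not pass (adjusted p = 0.0622). In this fit 42.3% of 10153 genes passed, 20.1% lower with day and 22.2% higher, so 5 of the 6 genes passing stands against a background in which passing was common. The median change of the 6 genes was -0.33 a day against 0.02 over all genes tested. The same 8 neutrophil genes as above all fell, with a median of -0.33 a day, from 0.22 for Cxcr2 to 0.92 for Retnlg. Without day 7 the S100a8 change was -0.55 but did not pass (adjusted p = 0.0897), nor did any other of the 6 genes. With library sizes not rescaled (no TMM) the median of all genes moved from 0.02 to 0.17 a day, the calls went from 2253 higher and 2044 lower to 4864 higher and 502 lower, the S100a8 change was -0.33, still called, and S100a4 passed at +0.28 (adjusted p = 0.00170).

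RNA of macrophage genes moved with the same days. The summed level of 12 macrophage-like markers (C1qa, Mrc1, Apoe and others) in neutrophil-like cells was 459.8 CPM at day 1, 2690.0 at day 3, 1792 at day 5 and 9494 at day 7 in the diabetic arm. In the control arm it was 692, 2127, 7702 and 11088. At most 1 of the 12 markers was at 0 in a library. Macrophage-like cells themselves held 10289 to 25773. The summed level of the 10 neutrophil-like markers was meanwhile 25562 at day 1 and 9177 at day 7 in the diabetic arm, and 22702 and 9026 in the control arm.

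A stricter choice kept neutrophil-like cells with more UMIs of neutrophil-like than of macrophage-like markers, 664 of 770 cells at diabetic day 7 and 940 of 1103 at control day 7. There the S100a8 level was 23912, 12360.5, 10083 and 11092 CPM on the 4 days in the diabetic arm and 19062, 13556, 8979 and 11040.2 in the control arm. Day 1 stayed highest in both arms, but day 7 was no longer lowest. The S100a8 level of day 1 was 2.16 times that of day 7 in the diabetic and 1.73 times in the control arm, against 3.97 and 3.86 times in all neutrophil-like cells. The change per day was -0.25 for S100a8 (adjusted p = 0.00933) and -0.23 for S100a9 (adjusted p = 0.0142), with 5.61% of 9161 genes lower with day. S100a6 fell by 0.20 a day (adjusted p = 0.00651), with day 1 at 1.99 times day 7 in the diabetic and 1.26 times in the control arm, against 2.12 and 1.54 in all neutrophil-like cells. S100a11 fell by 0.17 a day (adjusted p = 0.0184), and its day 1 level was 1.63 and 1.09 times that of day 7, against 2.37 and 1.90. Of the 8 other neutrophil genes only Retnlg (-0.68, adjusted p = 2.96e-05) and G0s2 (-0.18, adjusted p = 0.0493) passed in these cells, and 7 of the 8 are among the markers that chose the cells. S100a10 (0.01 a day, adjusted p = 0.902) and S100a4 (0.00 a day, adjusted p = 0.996) did not pass. Cells chosen singly for their neutrophil-like markers gave S100a8 levels of 25936 and 13016 at days 1 and 7 in the diabetic arm and 20737 and 11935 in the control arm. Both choices use neutrophil marker counts, which themselves go with S100a8, and the stricter cells still held 3057 and 5092 CPM of macrophage-like markers at day 7. The part of macrophage RNA in the change with day was not tested.

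**Figure D3:**
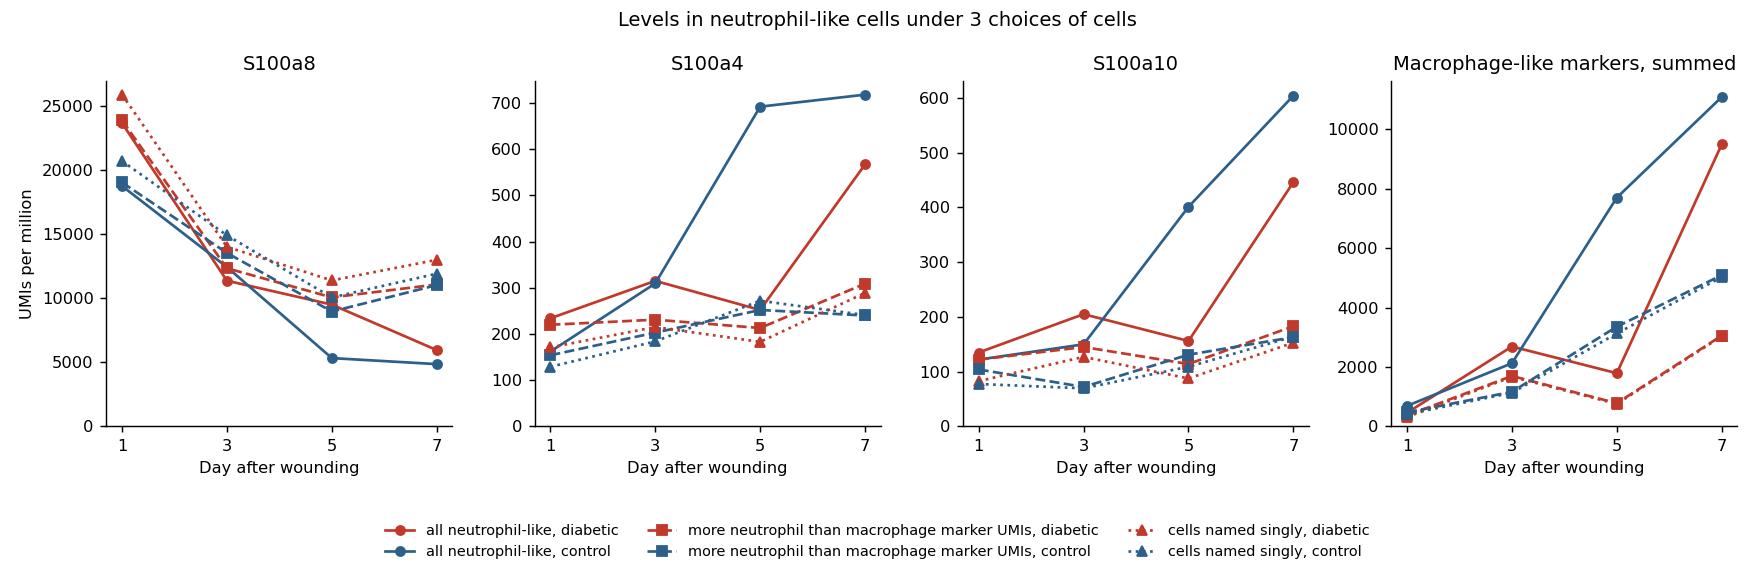
S100a8, S100a4, S100a10 and the summed macrophage-like markers (CPM) in neutrophil-like cells against the day after wounding, for all such cells, for those with more neutrophil than macrophage marker UMIs and for cells named singly, 1 point per library. At control day 7 S100a4 is at 718 and S100a10 at 604 in all such cells, against 240.1 and 163 in the stricter choice, while S100a8 is highest at day 1 in each choice.

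Neutrophil-like cells were not of 1 kind. The 5 clusters of the class were formed without S100 genes but from other genes of the same cells, so the following is a description without a test. The cluster led by Ngp, Retnlg, Wfdc21 and Lcn2, genes of granules of young neutrophils, had the highest S100a8 level, 34280.3 CPM at diabetic day 1, 26989 at control day 1 and 15444 at diabetic day 5. It held 879 cells at diabetic day 1 and 649 at control day 1, and under 20 at day 7 in either arm. The cluster led by Slfn4, Rsad2 and Ifit1, genes switched on by interferon, had 15927 and 13447 at day 1 in the diabetic and control arm. The cluster led by the cytokine genes Il23a, Il1a and Tnf had 11666 and 15355 at day 1 and 3346 and 3054 at day 7. A cluster led by Cxcr2 and Lrg1, with the immunoglobulin transcripts Igha and Igkc among its leading genes, had 16462 and 18409 at day 1 and 9223 and 4415 at day 7. The cluster led by Ighg2b, Cxcr2 and Csf3r held most of the cells of day 7, 395 of 770 in the diabetic and 961 of 1103 in the control library. Its S100a8 level was 16229.8 and 14455 CPM at day 1 and 6644 and 5088 at day 7. S100a8 was lower at day 7 than at day 1 within each cluster and arm that had at least 20 cells on both days, with day 1 at 1.78 to 5.03 times day 7, while the summed macrophage-like markers were higher at day 7 in each of those clusters.

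The other 4 genes were found at high levels in many classes, and T cells are known to make them, so T cell-like cells are no gauge for them. S100a4 was highest in osteoclast-like cells, with 3146 CPM at diabetic day 3 and 3775, 2988 and 2213 in the control libraries of days 3, 5 and 7. Its medians over libraries then ran from dendritic-like (1705) and monocyte-like (1416) over T cell-like (1203) and macrophage-like (861) to NK cell-like (399.6), neutrophil-like (312) and mast cell-like cells (181). Osteoclast-like cells were above macrophage-like cells of the same library in 4 of 4 libraries, by 3.10 to 4.54 times. Dendritic-like were above T cell-like cells in 8 of 8. The neighbours monocyte-like and T cell-like were not in the same order throughout, with the former higher in 6 of 7 libraries. In neutrophil-like cells S100a4 was at 234, 315, 252 and 567 CPM on the 4 days in the diabetic arm and at 162, 309.5, 692 and 718 in the control arm, the libraries high in S100a4 being those high in macrophage-like markers.

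S100a10, the annexin partner encoded near S100a11, had its lowest median in neutrophil-like cells, with a median of 181 CPM and a range of 122 (control day 1) to 604 (control day 7), the last above the dendritic-like level of its library. The medians were highest in osteoclast-like (1624) and monocyte-like cells (1376), followed by T cell-like (1138), macrophage-like (915), dendritic-like (691) and NK cell-like cells (631). Monocyte-like cells were above neutrophil-like cells in 7 of 7 libraries, by 2.70 to 12.7 times, and above macrophage-like cells in 7 of 7, by 1.07 to 1.70 times. Dendritic-like cells were below macrophage-like cells in 8 of 8. Monocyte-like and T cell-like cells, neighbours in this order, changed places in 1 of 7 libraries.

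S100a6 was spread over many classes. Its median was 2386 CPM in monocyte-like, 2306 in neutrophil-like, 1975 in T cell-like and 1908 in dendritic-like cells. Neutrophil-like cells were above monocyte-like cells in only 3 of 7 libraries and T cell-like above dendritic-like cells in 4 of 8, so these neighbours did not keep an order. Macrophage-like cells had 1484, NK cell-like cells 1047 and mast cell-like cells 514, and the NK cell-like level was below that of T cell-like cells in 6 of 6 libraries.

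S100a11, the partner of the Anxa1 protein, was highest in neutrophil-like cells. Its level there was 4500.0 CPM at day 1, 3626 at day 3, 3051 at day 5 and 1896 at day 7 in the diabetic arm, and 4105, 5752, 2530.0 and 2156 in the control arm. The control day 3 library was highest of the 8. Dendritic-like (median 2339) and monocyte-like cells (1799) came next, with the former above the latter in 7 of 7 libraries, and mast cell-like cells were lowest (835). Neutrophil-like cells were above the macrophage-, monocyte-, dendritic-, T cell- and NK cell-like cells of every library that held them, by 2.01 to 5.05 times over macrophage-like and 1.16 to 3.22 times over monocyte-like cells.

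**Figure D4:**
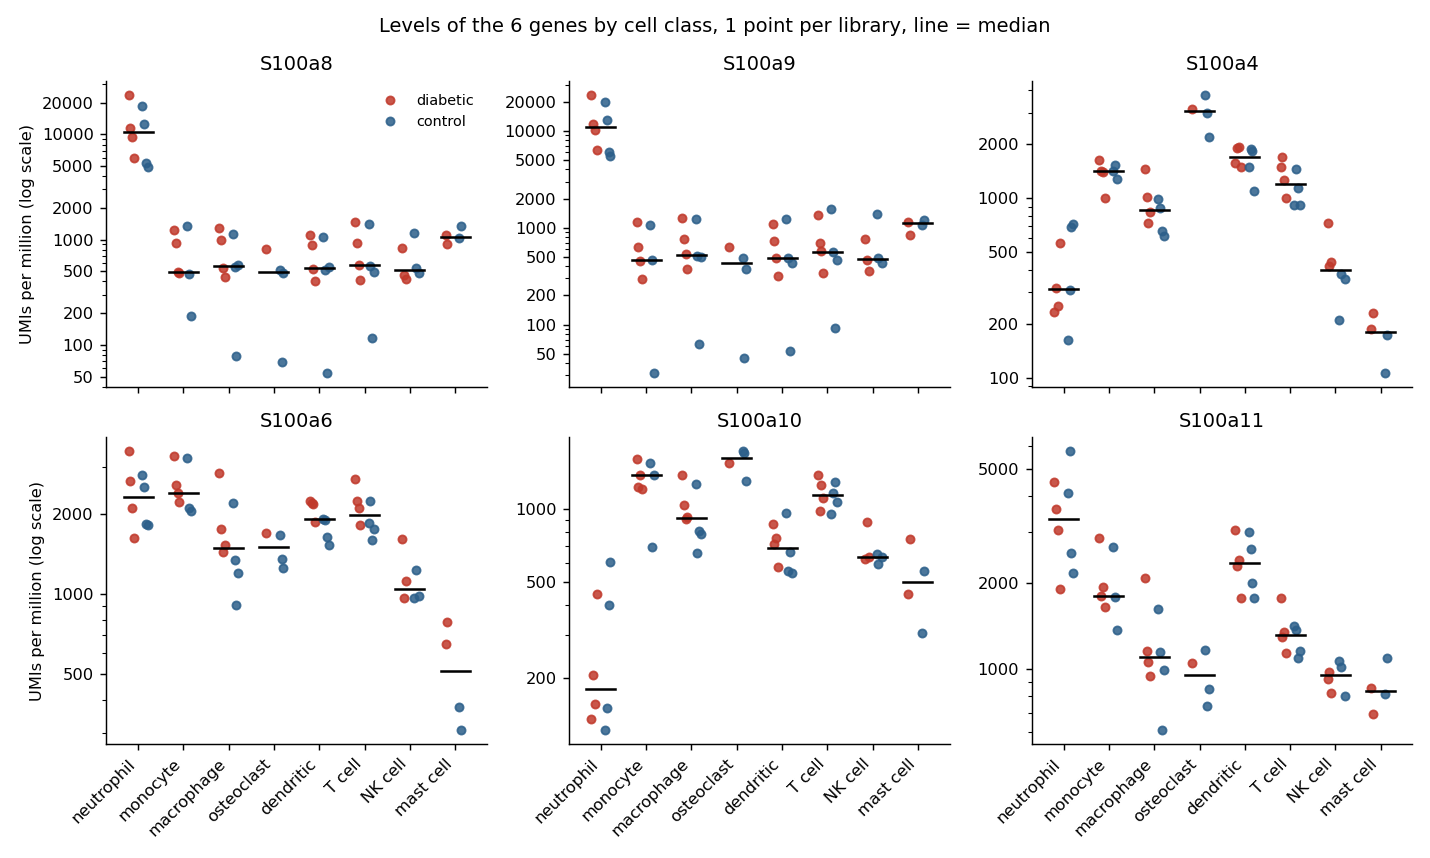
Levels of the 6 genes (CPM, log scale) in 8 cell classes, 1 point per library with at least 20 cells of the class, the line giving the median. S100a8 and S100a9 stand apart in neutrophil-like cells, and the median of S100a4 is highest in osteoclast-like and that of S100a10 lowest in neutrophil-like cells.

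Over 54 pairs of class and library, the patterns of the genes were compared on a log2 scale, described here without a test, since pairs share libraries and depth. S100a8 and S100a9 had a correlation of 0.99, S100a4 and S100a10 of 0.72, S100a6 and S100a11 of 0.70, and S100a8 and S100a10 of -0.69. S100a11 stood at 0.66 with S100a8 and 0.64 with S100a9. Among 3436 genes, the most like S100a8 were Stfa2l1 (0.96), Rdh12 (0.95), Gm5483, Wfdc21 and Asprv1 (0.94 each). The most like S100a4 were Edem1 (0.90), Fam96a (0.87), Rala (0.86), Psmd8 (0.85) and Plxnd1 (0.84). Position did not order the genes in the same way. S100a4 and S100a6 lie 6.84 kb apart with a correlation of 0.48, S100a11 and S100a10 28.8 kb apart with -0.45, and S100a8 and S100a9 22.6 kb apart with 0.99.

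In macrophage-like cells all 6 genes had a negative change per day, and only S100a4 passed. S100a4 was at 1453, 1014, 728 and 838 CPM on the 4 days in the diabetic arm and at 990.2, 884, 658 and 620.1 in the control arm, a change of -0.13 a day (SE 0.029, adjusted p = 0.0403). It is 1 of 206 genes passing, 1.90% of those tested, with 0.674% lower with day. The summed monocyte-like markers in these cells were lower at day 7 than at day 1 as well, at 4469.9 and 2997 CPM in the diabetic and 4909 and 2205 in the control arm, with 0 of 10 markers at 0. The macrophage-like markers went from 10289 to 19227 and from 11361 to 21283. S100a4 was higher in monocyte-like than in macrophage-like cells in 7 of 7 libraries, and the part of such RNA or cells in its change was not tested. The 3 macrophage-like clusters were spread unevenly over the libraries, with 63.8% of the cells of the cluster led by Igf1 and Gdf15 from control day 7. Its median S100a4 level was 637 CPM over 6 libraries. The cluster led by Pf4 had 934 and that led by Retnla 599, each over 8 libraries, so the sets of libraries differ. The part of this make-up in the change was not tested either. With finer clusters, a resolution of 1.6, the S100a4 change was -0.07 and did not pass with edgeR (adjusted p = 0.446), and without day 1 it was -0.10 (adjusted p = 0.523). S100a11 (-0.16) and S100a6 (-0.15) came next, with adjusted p of 0.0698 and 0.0610. In monocyte-like cells the change per day was negative for all 6 genes as well, and none passed with edgeR, where 3 genes or 0.0299% did. S100a8 and S100a9 had -0.38 and -0.49 a day there with edgeR (adjusted p = 0.129 and 0.184). They were at 0.837 to 1.64 times and 0.345 to 0.898 times the T cell-like level. The 1.64 is that of control day 5, where 1 cell held 51 of the 78 S100a8 UMIs of the class. With DESeq2 the S100a8 change in monocyte-like cells passed (-0.37, adjusted p = 0.00332).

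The comparison of diabetic with control wounds asked whether alarmin and other S100 transcripts stood higher in diabetic wounds. It was tested over the 4 days, with day as a block, since the days stand in for replicates and may themselves differ in what diabetes does. None of the 6 genes passed in any of the 5 edgeR fits. The share of all genes passing was 0.00% over all cells, 0.0185% in neutrophil-like, 0.00% in monocyte-like, 0.0798% in macrophage-like and 0.0101% in dendritic-like cells, so the fits called almost nothing. Over all cells 1521 genes had an unadjusted p under 0.05 with edgeR and 92 passed with DESeq2, and in monocyte-like cells 384 and 2 did. In neutrophil-like cells S100a8 was 1.26 times the control level at day 1, 0.914 times at day 3, 1.78 times at day 5 and 1.23 times at day 7. The log2 difference was 0.47 (SE 0.37, adjusted p = 0.710), and 0.12 (adjusted p = 0.889) in the stricter choice of cells. For S100a9 it was 0.40 (SE 0.37, adjusted p = 0.745) and 0.05 in the stricter choice. S100a4 and S100a10 were lower in diabetic neutrophil-like cells at day 5, at 0.364 and 0.390 times the control level, where the control cells held 7702 against 1792 CPM of macrophage-like markers. In the stricter choice the difference over the days turned from -0.17 to 0.23 for S100a4 and from -0.16 to 0.33 for S100a10, neither passing.

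Over all cells the log2 difference was 0.86 for S100a8 (SE 0.68, adjusted p = 0.609) and 0.81 for S100a9 (SE 0.70, adjusted p = 0.635). The S100a8 ratio of diabetic to control was 1.15 at day 1, 1.16 at day 3, 12.0 at day 5 and 0.962 at day 7. Without day 5 the difference was 0.12 for S100a8 and 0.05 for S100a9. The same day stood out in other classes, with a ratio of 6.88 in macrophage-like, 9.68 in dendritic-like, 4.98 in T cell-like and 2.58 in monocyte-like cells. Without the 1 cell highest in S100a8 at control day 5, the ratio was 9.26 in T cell-like and 7.18 in monocyte-like cells.

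The nearest to passing was S100a6 in macrophage-like cells. Its level was 2857, 1748, 1441 and 1527 CPM on the 4 days in the diabetic arm and 2194, 1335, 909 and 1200.1 in the control arm, higher in the diabetic library on 4 of 4 days by 1.27 to 1.59 times. The log2 difference was 0.46 (SE 0.096, unadjusted p = 6.05e-04, adjusted p = 0.107 with edgeR). DESeq2 gave an adjusted p of 0.00191, and edgeR without a filter on low counts 0.00246. S100a4 was higher in the diabetic macrophage-like cells on 4 of 4 days too, by 1.11 to 1.47 times (log2 difference 0.35, SE 0.10, adjusted p = 0.208), as was S100a10 by 1.09 to 1.58 times (log2 difference 0.31, adjusted p = 0.286). The summed neutrophil-like markers in macrophage-like cells were 1979, 1608, 1309 and 1067 CPM in the diabetic and 1787, 1196, 465 and 1108 in the control arm, higher in the diabetic library on 3 of 4 days. The summed monocyte-like markers in these cells were 4469.9, 3181, 3428 and 2997 in the diabetic and 4909, 3789, 1664 and 2205 in the control arm, higher in the diabetic library at days 5 and 7 only. S100a6 and S100a10, like S100a4, were higher in monocyte-like than in macrophage-like cells in 7 of 7 libraries. The part of either kind of RNA in the differences was not tested. The 3 macrophage-like clusters were also spread unevenly over the libraries. That led by Igf1 and Gdf15 had 63.8% of its cells from control day 7, and that led by Pf4 had 33.4% from control day 5. Median S100a6 was 1298 CPM over 6 libraries in the former, 1599 over 8 in the latter and 1118 over 8 in the cluster led by Retnla. These medians rest on unlike sets of libraries. The part of this make-up was not tested. In dendritic-like cells S100a6 was also higher on 4 of 4 days, by 1.16 to 1.34 times (log2 difference 0.27, adjusted p = 0.747). The same held over all cells, by 1.13 to 1.80 times, and in monocyte-like cells on 3 of 3 days. In T cell-like and neutrophil-like cells S100a6 was higher on 3 of 4 days, with lowest ratios of 0.998 and 0.894. S100a4 was higher on 4 of 4 days in dendritic-like and T cell-like cells too, but on 2 of 4 in neutrophil-like cells and over all cells. In monocyte-like cells, where control day 7 had 14 cells and was left out, S100a8 had a log2 difference of 0.76 and S100a9 of 1.13 (adjusted p = 1.00 for both). Without day 1 they were 1.20 (adjusted p = 0.0339) and 1.86 (adjusted p = 1.37e-04) with edgeR, from few libraries with 1 residual degree of freedom. In that fit 45 of 9795 genes passed. S100a8 was at 0.837 to 1.64 times the T cell-like level and S100a9 at 0.345 to 0.898 times. At control day 5, the library at 1.64, 1 monocyte-like cell held 51 of the 78 S100a8 UMIs. Without that cell the S100a8 level was 67.9 in place of 189 CPM. S100a9 had only 13 UMIs in the 31 monocyte-like cells of control day 5, or 31.5 CPM, against 457 at diabetic day 5.

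**Figure D5:**
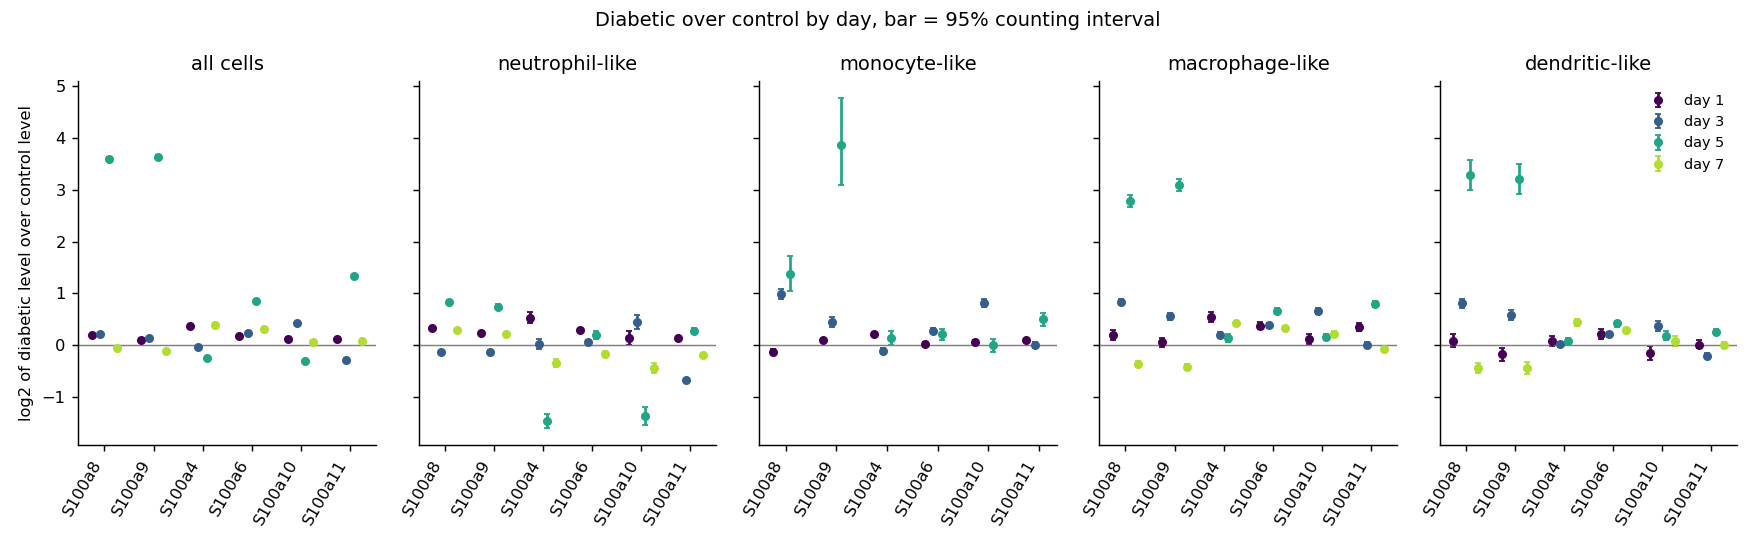
Log2 of the diabetic over the control level of each gene by day, in all cells and 4 cell classes, bars giving the 95% counting interval, with day 7 absent for monocyte-like cells. S100a8 and S100a9 at day 5 stand far from the other days in all cells, macrophage-like and dendritic-like cells. So does S100a9 in monocyte-like cells, where control day 5 held only 13 of its UMIs in 31 cells. S100a6 in macrophage-like cells is above 0 on each day.

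The receptors and partners of the 6 proteins did not move as a group. Of 12 genes, 2 rose and 3 fell per day in the full class of neutrophil-like cells, where 42.3% of all genes passed. Their median there was -0.08 against 0.02 over all genes. Myd88, the adaptor below Tlr4, fell by 0.32 a day (adjusted p = 5.02e-04), Cd14, which hands ligands to Tlr4, by 0.33 (adjusted p = 0.00208), and Myh9 by 0.19 (adjusted p = 0.00480). Cacybp, the S100a6 partner, rose by 0.26 (adjusted p = 0.00262) and Ahnak, which binds the S100a10 complex, by 0.19 (adjusted p = 0.0202). Both are higher in macrophage-like than in neutrophil-like cells, with medians of 96.6 against 29.5 CPM for Cacybp and 2676 against 458 for Ahnak. In the stricter neutrophil-like cells neither passed with edgeR, at 0.08 a day each (adjusted p = 0.314 and 0.351), nor did Myh9 (-0.10, adjusted p = 0.0844). Myd88 (-0.22, adjusted p = 0.00378) and Cd14 (-0.15, adjusted p = 0.0428) did. Anxa1, the S100a11 partner, passed there as well (-0.26, adjusted p = 0.00918), though not in all neutrophil-like cells (-0.07, adjusted p = 0.415). The genes of this list that passed in the stricter cells all fell, where 5.61% of genes tested were lower with day. Tlr4 itself had a median of 35.7 CPM in neutrophil-like cells and 14.8 in macrophage-like cells, and its change per day was -0.17 (adjusted p = 0.0859). Ager, the receptor for advanced glycation end products, was near absent, with 235 UMIs in all kept cells. Between the arms 0 of the 12 passed in any fit, where the lowest adjusted p was 0.308 in macrophage-like cells. Of a list of 11 other genes with S100 in their symbol, S100pbp included, only 3 were abundant enough to be tested in neutrophil-like cells. There S100a1 rose by 0.42 a day (adjusted p = 7.54e-04), its level being 20.9 CPM in neutrophil-like and 101 in macrophage-like cells at the median. In the stricter cells S100a1 had 0.33 a day (adjusted p = 0.00719), where 4.22% of genes were higher with day.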

How the data were processed

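The authors deposited 1 table of raw UMI counts (genes by barcodes) per library. Per the methods, reads were trimmed, UMIs extracted, and aligned with STAR to the Ensembl 92 mouse genome. The submitters' processing notes name fastp 0.20.1 and mm9. The study describes capture on BD Rhapsody, with cells in microwells, throughout its methods, while the series design text names 10X Genomics. Barcodes carry serial names, so those shared between libraries cannot be counted. The running text of the study gives far fewer cells than the tables hold. Its own counts by cluster and sample add up to many more cells than that text gives.

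Barcodes with at least 200 genes and at most 20% mitochondrial UMIs were kept. Cells were clustered with scanpy 1.11.5 and leidenalg 0.10.2 in Python 3.11.15 (2000 variable genes, 10 components, 30 neighbours, resolution 0.8), leaving out S100 genes, and named from marker lists. Scrublet called 0.298% of cells, under the 0.5% taken as working, so no doublets were removed. Pairs of class and library with under 20 cells were left out.

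UMIs were summed per class and library. The group difference (day as a block) and the change per day (arm as a factor) were fitted over all genes with edgeR 4.0.16 in R 4.3.3 by its quasi-likelihood test, with Benjamini-Hochberg adjustment at 0.05, and DESeq2 1.42.0 as an alternative. The group difference fit in neutrophil-like cells was tried on simulated data. The other fits, those of the change per day included, were not. Days are not replicates of a condition. Intervals of levels are exact Poisson ones at 95% and hold counting error alone. The 6 genes, marker lists and partner lists were chosen with earlier results of these data known. All 6 genes are named throughout, other genes by role, and for likeness the 5 nearest to S100a8 and S100a4 on log2(CPM + 20), among genes with a mean of at least 50. The stricter choice of neutrophil-like cells and the removal of the top 5% of doublet scores were added after seeing the data. Other alternatives were the filter on low counts, no TMM, 500 genes per cell, Scrublet doublets removed, resolution 1.6, cells named singly, and leaving out each day.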

Additional observations from a re-analysis of the deposited data

Results flagged for a closer look

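Barcodes that failed the filters, which enter no comparison, also held S100a8 and S100a9. At day 1 their S100a8 level was 7577 CPM in the diabetic and 3519 in the control library, a ratio of 2.15 (95% counting interval 1.86 to 2.50), and the S100a9 level was 7479 against 4308, a ratio of 1.74. At day 5 S100a8 was 1896 against 241, a ratio of 7.85, and S100a9 was 2144 against 228, a ratio of 9.42. These 4 values stood out because they lay above the control library in data that no comparison uses. At days 3 and 7 the intervals of the ratio held 1 for both genes. Each ratio compares 1 library with 1 library.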

How the results depend on the processing

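Each arm and day has 1 library, so counts of genes passing rest on few residual degrees of freedom, and 45 of 96 alternative counts differed from the reported one by more than 1.5 times. No paired analysis was possible because each group has a single library, other than the pairing by day that the group difference already holds. Genes passing between the arms over all cells, in neutrophil-, monocyte-, macrophage- and dendritic-like cells numbered 92, 43, 2, 172 and 18 with DESeq2, and 1, 154, 45, 388 and 122 with no filter on low counts. Leaving out each day in turn gave 0 to 1, 0 to 5, 0 to 86, 0 to 36 and 1 to 4. With cells named singly 5 genes passed in neutrophil-like and 4 in macrophage-like cells, with resolution 1.6 5 in macrophage-like cells, in the stricter neutrophil-like cells 6, and without the highest doublet scores 0 in dendritic-like cells. For the change per day, DESeq2 called 180 genes in monocyte-like and 588 in macrophage-like cells, no filter 336 and 648, resolution 1.6 94 and 72, and cells named singly 706 in neutrophil-like, 184 in monocyte-like and 86 in macrophage-like cells. The stricter neutrophil-like cells gave 901. Leaving out each day gave 94 to 4848, 0 to 189 and 43 to 458 in these 3 classes.

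Of 576 alternative values of the 6 genes, 513 kept their direction and side of the threshold, 32 passed newly, 13 no longer passed and 18 turned in sign. Per day in neutrophil-like cells, S100a8 ran from -0.55 to -0.43 and S100a9 from -0.52 to -0.40 when a day was left out, neither passing without day 7. Differences between the arms that turned were those of S100a10 (-0.01 without day 3, at most 0.20 without another day) and S100a11 (-0.03 without day 5, at most 0.53) over all cells. In neutrophil-like cells S100a10 was 0.20 with cells named singly, 0.33 in the stricter cells and 0.03 without day 5, and S100a4 was 0.14, 0.23 and 0.05, with lowest values of -0.35 and -0.34 when another day was left out. S100a11 there was -0.11 with no TMM, -0.00 at resolution 1.6, -0.16 with cells named singly, -0.30 in the stricter cells and -0.26 (without day 5) to 0.27 when a day was left out. In dendritic-like cells S100a11 was -0.00 with DESeq2 and -0.09 (without day 5) to 0.07 when a day was left out, and S100a9 -0.04 (without day 5) to 1.06. The change per day of S100a10 without day 1 was 0.12 in monocyte-like and 0.00 in macrophage-like cells. The cause was not tested. Thinning to 500 UMIs gave a median of 87.0% of neutrophil-like cells with S100a8 and 87.6% with S100a9, and no thinning gave 83.1% and 81.2% of T cell-like cells. Of 24 alternative shares, 19 moved by more than the spread between libraries. The 156 alternative medians over libraries moved by less than that spread, though single libraries moved more, such as control day 7 neutrophil-like cells, where the stricter choice took S100a8 from 4868 to 11040.2 CPM and S100a4 from 718 to 240.1.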
